A study of Arabidopsis thaliana with 9 samples.

Results

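The genes described here are 33 factors that make, load and degrade plant microRNAs, chosen as named loci from the published pathway, out of 37361 loci in the count tables. All 33 passed the filter on low counts and were tested among 22400 genes. The mRNA came from seedlings of *Arabidopsis thaliana* at the age of 14 days, labelled *thp1-5*, *sac3bc* or Col, with 3 libraries of each genotype. The names of the mutants point to *THP1*, *SAC3B* and *SAC3C*, genes for parts of TREX-2, which links transcription with the export of mRNA through the nuclear pore, and the title of the study names this complex together with microRNA biogenesis. Col is the wild type. All groups grew untreated on MS medium with sucrose under the same daily light and dark cycle. The labels give the genotype names without describing the alleles, and do not say whether the libraries of a genotype came from separate cultures of plants, so a p-value sets a difference against the spread of these libraries only, which may be technical. The RNA was polyadenylated, so the values below are levels of the factors' own mRNAs. They are not levels of proteins or of mature microRNAs, and *MIR* loci were not analysed here.

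In plants a primary microRNA transcript is capped, spliced and polyadenylated, and is then cut in the nucleus by DCL1, a Dicer-like RNase III, together with the double-stranded RNA-binding protein HYL1 and the zinc finger protein SE. Many cofactors act on the transcription of the *MIR* genes or on this cutting step. The duplex is methylated by HEN1, one strand is loaded into an ARGONAUTE protein, mainly AGO1, and unmethylated microRNAs are tailed with uridines and trimmed from the end. The pathway also acts on itself, since miR162 targets the *DCL1* mRNA and miR168 targets the *AGO1* mRNA.

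The sites of this self-regulation are shown because *DCL1* and *AGO1*, the only members searched for such sites, both had lower mRNA levels in the mutants. Sequences are given 5′ to 3′ from RefSeq TAIR10.1, and in each mature microRNA the capitals mark the seed, bases 2 to 8. The miR162a-3p sequence lies at chr5:2634936-2634956 on the minus strand, and miR162b-3p has the same letters at chr5:7740610-7740630 on the minus strand. The miR168a-5p sequence lies at chr4:10578652-10578672 on the plus strand, and miR168b-5p has the same letters at chr5:18358873-18358893 on the minus strand.
miR162a-3p: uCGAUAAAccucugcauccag
miR168a-5p: uCGCUUGGugcaggucgggaa
The miR162 site of *DCL1* spans the junction of exons 12 and 13 on the plus strand, between the genome positions chr1:27522-27627 with the intron between, and is coding sequence. The miR168 site of *AGO1* is coding sequence of exon 2, at chr1:17891529-17891549 on the minus strand. Capitals in the sites mark bases that form a Watson-Crick pair with the microRNA.
DCL1 site: CUGGAUGCAGAGGUaUUAUCGA
AGO1 site: UUCCCGAgCUGCAuCAAGCuA
The *DCL1* site pairs with all 21 bases of miR162 and holds 1 extra unpaired base. It belongs to 1 of the 2 annotated *DCL1* transcripts, and the other joins the same exons at another point, where the best match has 18 Watson-Crick pairs. The *AGO1* site has 18 Watson-Crick pairs, 1 G:U pair at position 8 counted from the microRNA 5′ end, and mismatches at positions 2 and 14. A match is a description of the letters, and cutting at these sites was not measured.

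Each library held 12.8 to 17.9 M counts. Levels are given as CPM, counts divided by the library size after TMM scaling, which sets the bulk of genes level between libraries. Genes were called at an adjusted p under 0.05 by edgeR's quasi-likelihood test with Benjamini-Hochberg adjustment over all 22400 genes, and every adjusted p below is of this kind unless another tool is named. Each log2 fold change is given with its standard error and runs mutant over Col, or *thp1-5* over *sac3bc*. The genes named by the genotypes were checked first. *THP1* had 11.8 ± 0.787 CPM in *thp1-5*, 6.17 ± 1.03 CPM in *sac3bc* and 12.6 ± 1.32 CPM in Col (SD, n = 3 each), so the *thp1-5* label was not visible in the summed count of this gene (edgeR adjusted p = 0.413 against Col). *SAC3B* had 33.2 ± 2.87 CPM in *thp1-5*, 25.7 ± 2.38 CPM in *sac3bc* and 47.0 ± 0.270 CPM in Col. *SAC3C* had 13.4 ± 0.536 CPM in *thp1-5*, 7.71 ± 0.214 CPM in *sac3bc* and 15.2 ± 0.818 CPM in Col. Both were lower in *sac3bc* than in Col (edgeR adjusted p = 3.31e-27 for *SAC3B* and 1.28e-15 for *SAC3C*). *THP1* was lower in *sac3bc* as well, at -1.03 ± 0.12 (edgeR adjusted p = 2.92e-14). *SAC3B* was also lower in *thp1-5*, at -0.50 ± 0.061 (edgeR adjusted p = 1.08e-12). The falls thus did not keep to the genes that a label names. The green tissue markers *RBCS1A*, *LHCB1.3* and *RCA* were abundant in every group, and were lower in both mutants, with log2 fold changes of -0.53, -0.88 and -0.42 in *thp1-5* and of -0.68, -1.10 and -0.70 in *sac3bc*. Their part in the changes below was not tested. The flower organ genes *AP1*, *AG* and *PI* averaged below 1 CPM in every group. The root genes went opposite ways, with *PYK10* at -1.10 ± 0.019 in *thp1-5* and -1.13 ± 0.019 in *sac3bc*, and *COBL9* at 0.72 ± 0.13 in *thp1-5* and 1.12 ± 0.12 in *sac3bc*. The seed storage gene *CRU3* averaged 6.45 CPM in *thp1-5*, 0.264 CPM in *sac3bc* and 16.5 CPM in Col.

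The 33 genes moved in both directions in each mutant. In *thp1-5* against Col, 9 of the 33 genes rose, 10 fell and 14 were not called, which is 57.6% called against 63.8% of all genes tested, of which 32.1% rose and 31.8% fell. The median log2 fold change was -0.00 for the 33 genes and 0.01 for all genes. In *sac3bc* against Col, 10 rose, 11 fell and 12 were not called, which is 63.6% called against 68.0% of all genes, with 35.0% of all genes rising. The median there was 0.02 for the 33 genes and 0.03 for all genes. These comparisons share the Col libraries, so their values are set side by side without being counted as independent. Most changes were small. The median size of a change was 0.21 on the log2 scale in *thp1-5* and 0.23 in *sac3bc*, against 0.34 and 0.37 for all genes. The F-box gene *HWS* was the 1 member past 1.5-fold in each mutant (3.03% of the 33), where 25.3% of all genes in *thp1-5* and 29.8% in *sac3bc* were. The members sat at a median TPM percentile of 64.3 in Col, and all genes tested include mRNAs with fewer counts. Sizes of change were not compared at matched levels, so the smaller changes cannot be assigned to the pathway. In bulk seedlings a smaller share of the cells that hold an mRNA and less of it per cell cannot be told apart.

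The 3 mutant libraries did not overlap the 3 Col libraries in 22 of the 33 genes for *thp1-5*, 12 of them above Col and 10 below, against 65.4% of all genes. For *sac3bc* it was also 22 genes, 10 above and 12 below, against 69.3% of all genes. The directions rest on the scaling. With scaling by library totals and no TMM factors, the median over all genes moved up by 0.29 in *thp1-5* and by 0.34 in *sac3bc*, and 25 members rose and 4 fell in *thp1-5*, and 24 rose and 5 fell in *sac3bc*. Of all genes, 56.0% rose and 16.1% fell in *thp1-5* under that scaling, and 60.8% rose and 16.2% fell in *sac3bc*. All 9 and 10 rising calls were kept under that scaling. It moved every member up in both mutants, so it could hardly have removed a rise and does not test the rises. Of the falling calls, *MAC3B*, *GRP7*, *URT1* and *AGO1* stayed lower in both mutants and *DCL1* in *sac3bc*, while *CDC5* turned to higher in both.

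**Figure D1:**
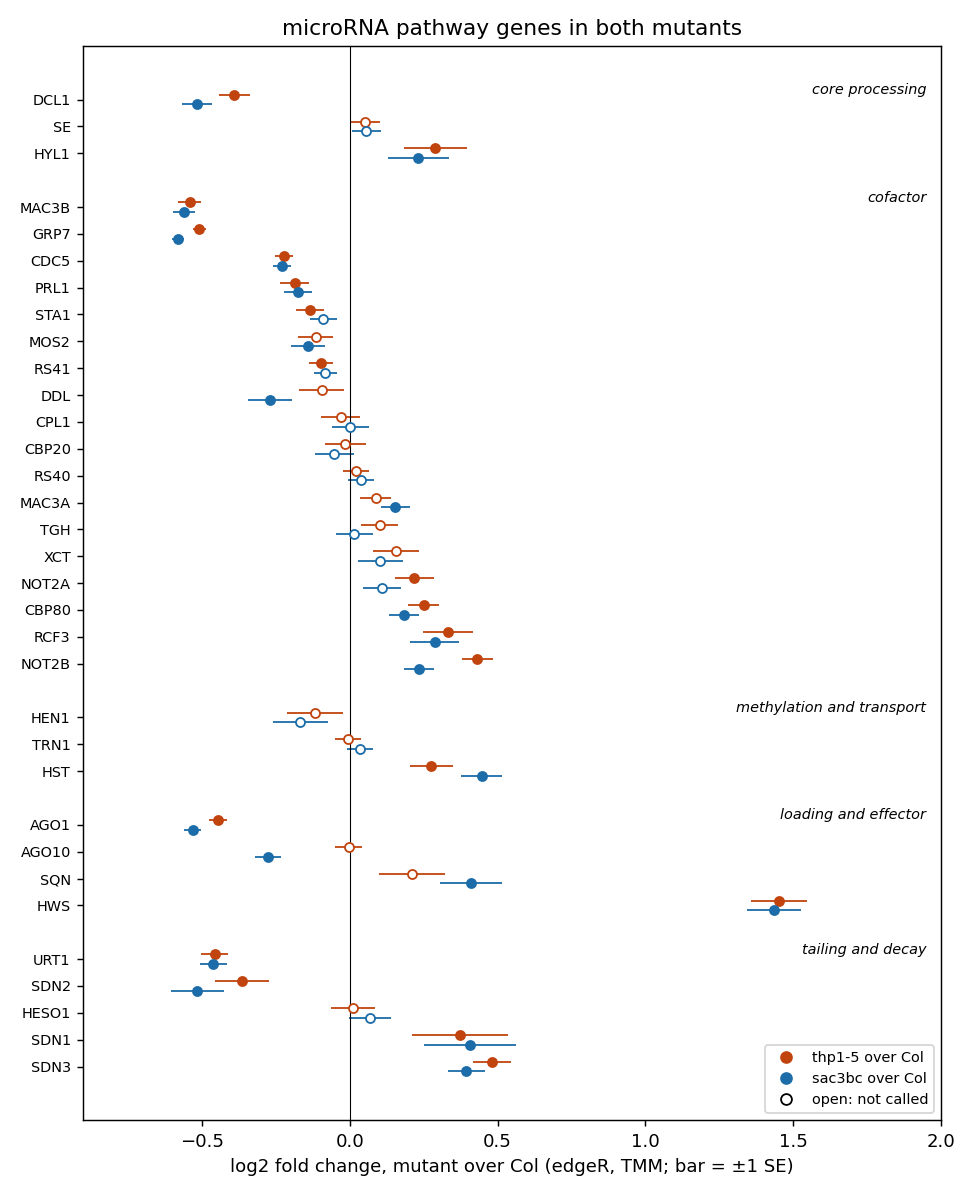
Log2 fold change of each of the 33 genes in *thp1-5* over Col (orange) and *sac3bc* over Col (blue), grouped by role; bars are 1 SE, filled points were called and open points were not. *HWS* stands apart at 1.45 and 1.43, the other genes lie between -0.58 and 0.48, and both directions occur within most roles.

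Of the core processing genes, the nuclease gene fell, its double-stranded RNA-binding partner rose and the zinc finger gene was not called. *DCL1* (AT1G01040) had 42.9, 45.4 and 45.2 CPM in *thp1-5*, 41.5, 41.5 and 39.6 CPM in *sac3bc*, and 59.0, 55.4 and 60.9 CPM in Col. Every mutant library was below every Col library, with *sac3bc* lowest. *DCL1* fell by 0.39 ± 0.052 on the log2 scale in *thp1-5* (edgeR adjusted p = 3.94e-11) and by 0.52 ± 0.051 in *sac3bc* (edgeR adjusted p = 1.64e-17). Scaled by total counts, it was -0.10 and not called in *thp1-5* (edgeR adjusted p = 0.0719) and remained lower in *sac3bc*. Its exons overlap the pyrophosphatase gene *PPa1* and AT1G03993 on the other strand, and 13.5% of its exonic bases are shared. *PPa1* changed by -0.23 ± 0.046 in *thp1-5* and -0.28 ± 0.045 in *sac3bc*, and since no source used here gives the strand setting of the counting, the reads of these genes may not be fully separate.

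*HYL1* (AT1G09700), the partner that positions the cut, had 13.2, 13.2 and 12.7 CPM in *thp1-5*, 11.9, 12.4 and 13.2 CPM in *sac3bc*, and 11.8, 9.57 and 10.7 CPM in Col. Both mutants lay above Col, though the lowest *sac3bc* library was within 0.1 CPM of the highest Col library. *HYL1* rose by 0.29 ± 0.105 in *thp1-5* (edgeR adjusted p = 0.0122) and by 0.23 ± 0.103 in *sac3bc* (edgeR adjusted p = 0.0385). Without Col replicate 2, neither call was made (0.21, edgeR adjusted p = 0.111 in *thp1-5*, and 0.15, edgeR adjusted p = 0.238 in *sac3bc*), and the *sac3bc* call was also lost without Col replicate 3 (0.24) or without *sac3bc* replicate 2 (0.24) or 3 (0.19). In *sac3bc* it was also not called by DESeq2 (0.21, DESeq2 adjusted p = 0.123) or with RLE size factors (0.22, edgeR adjusted p = 0.0556). *SE* (AT2G27100) had 55.5, 53.6 and 57.6 CPM in *thp1-5*, 52.2, 58.0 and 56.5 CPM in *sac3bc*, and 54.9, 51.2 and 54.8 CPM in Col. The groups overlapped, and the 95% interval of the log2 fold change ran from -0.05 to 0.15 in *thp1-5* and from -0.04 to 0.15 in *sac3bc*. The ratio of *DCL1* to *HYL1* counts, which no scaling can move, was 3.42 ± 0.157 in *thp1-5*, 3.28 ± 0.251 in *sac3bc* and 5.49 ± 0.433 in Col (SD, n = 3 each). All mutant ratios were below all Col ratios, and an exact two-sided permutation test gave p = 0.1 for each mutant against Col, the smallest value that 3 libraries against 3 allow. This pair was chosen with the values known, *DCL1* lower and *HYL1* higher, so the direction and separation of its ratio are no separate support.

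Among the 18 cofactors of transcription and processing, 4 rose and 6 fell in *thp1-5*, and 4 rose and 6 fell in *sac3bc*. This is 55.6% called in each mutant, below the 63.8% of all genes in *thp1-5* and 68.0% in *sac3bc*. *RCF3* (AT5G53060), *NOT2B* (AT5G59710) and *CBP80* (AT2G13540) rose in both mutants. *MAC3B* (AT2G33340), *GRP7* (AT2G21660), *CDC5* (AT1G09770) and *PRL1* (AT4G15900) fell in both. *NOT2A* (AT1G07705) rose and *RS41* (AT5G52040) and *STA1* (AT4G03430) fell in *thp1-5*, and *MAC3A* (AT1G04510) rose and *DDL* (AT3G20550) and *MOS2* (AT1G33520) fell in *sac3bc*, but the mutants were not called different from each other in any of these 6 genes.

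*MAC3B* encodes a U-box ubiquitin ligase of the MOS4-associated complex, a splicing-linked complex that also binds primary microRNA transcripts. It had 87.9, 90.9 and 83.7 CPM in *thp1-5*, 88.8, 83.7 and 87.1 CPM in *sac3bc*, and 129.8, 129.0 and 123.8 CPM in Col. All mutant libraries were about level with each other and well below Col. In *sac3bc* it fell by 0.56 ± 0.037 (edgeR adjusted p = 1.07e-29), against 0.54 ± 0.038 in *thp1-5*. Its paralog *MAC3A* had a log2 fold change of 0.09 ± 0.051 in *thp1-5*, which was not called, and rose by 0.15 ± 0.049 in *sac3bc* (edgeR adjusted p = 0.00372). Other subunits of the complex did not share a direction. *MAC5A*, a subunit gene from the further factors described below, rose by 0.45 ± 0.058 in *thp1-5* and 0.44 ± 0.056 in *sac3bc*. *CDC5* and *PRL1* fell, with fold changes nearer to 0 than those of *MAC3B*. The MYB-related *CDC5* changed by -0.22 ± 0.031 in *thp1-5* and -0.23 ± 0.030 in *sac3bc*, and the WD-repeat gene *PRL1* by -0.19 ± 0.049 and -0.18 ± 0.048 in the same groups. Both turned positive when libraries were scaled by total counts, at 0.06 and 0.11 for *CDC5* and at 0.10 and 0.16 for *PRL1*. *CDC5* shares 7.72% of its exonic bases with *iPGAM1* on the other strand, which rose by 0.28 ± 0.035 in *thp1-5* and 0.56 ± 0.033 in *sac3bc*.

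*GRP7*, a clock-regulated glycine-rich RNA-binding protein that binds microRNA precursors, was the most abundant of the 33 mRNAs. It had 1135, 1145 and 1117 CPM in *thp1-5*, 1130.3, 1039 and 1062 CPM in *sac3bc*, and 1633, 1586 and 1614 CPM in Col. Col stood above every mutant library. The change was -0.58 ± 0.021 in *sac3bc* (edgeR adjusted p = 3.22e-55) and -0.51 ± 0.021 in *thp1-5*.

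*NOT2B* encodes a subunit shared with the CCR4-NOT complex that promotes transcription of *MIR* genes. It had 57.6, 58.6 and 65.8 CPM in *thp1-5*, 53.0, 52.4 and 53.0 CPM in *sac3bc*, and 42.5, 45.9 and 46.1 CPM in Col. The groups were stepped without overlap, *thp1-5* above *sac3bc* and *sac3bc* above Col. It rose by 0.43 ± 0.052 in *thp1-5* (edgeR adjusted p = 4.36e-13) and by 0.23 ± 0.051 in *sac3bc* (edgeR adjusted p = 2.8e-05). Its paralog *NOT2A* rose by 0.22 ± 0.066 in *thp1-5*, and had 0.11 ± 0.064 in *sac3bc*, which was not called.

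*RCF3*, a KH-domain protein that binds CPL1, the phosphatase of HYL1, had 23.4, 20.7 and 19.3 CPM in *thp1-5*, 18.7, 21.6 and 20.8 CPM in *sac3bc*, and 15.4, 18.2 and 16.4 CPM in Col. All mutant libraries were above Col, by a narrow margin in *sac3bc*. It rose by 0.33 ± 0.085 in *thp1-5* (edgeR adjusted p = 0.000361) and by 0.29 ± 0.083 in *sac3bc* (edgeR adjusted p = 0.00139). *CPL1* (AT4G21670) itself was not called, at -0.03 ± 0.066 in *thp1-5* and 0.00 ± 0.064 in *sac3bc*. The cap-binding genes parted, since *CBP80* rose by 0.25 ± 0.052 in *thp1-5* and 0.18 ± 0.051 in *sac3bc*, while *CBP20* (AT5G44200) was at -0.01 ± 0.068 and -0.05 ± 0.066 in these groups and was not called.

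The other called cofactors changed by small amounts. *RS41*, an SR-type splicing factor, was -0.10 ± 0.041 in *thp1-5* (edgeR adjusted p = 0.0284), with libraries that overlapped Col, and its call was lost without Col replicate 1 (-0.08) or 3 (-0.07) or without *thp1-5* replicate 1 (-0.07), and by DESeq2 (-0.10, DESeq2 adjusted p = 0.0649). In *sac3bc*, where it was -0.08 and not called, it was called lower with RLE size factors (-0.10), with only the 6 libraries compared (-0.09), and without Col replicate 2 (-0.13) or *sac3bc* replicate 3 (-0.10). A share of 20.9% of its exonic bases belongs also to AT5G52045. The splicing factor gene *STA1* was -0.13 ± 0.047 in *thp1-5*. *DDL*, which encodes a forkhead-associated domain protein that binds DCL1, was -0.27 ± 0.074 in *sac3bc* (edgeR adjusted p = 0.000813), and was not called without Col replicate 3 (-0.18, edgeR adjusted p = 0.0526). *MOS2*, an RNA-binding protein gene, was -0.14 ± 0.058 in *sac3bc* and was not called without Col replicate 1 (-0.08) or without *sac3bc* replicate 2 or 3 (-0.12 each). All 4 of these genes had positive values when scaled by total counts. *XCT* (AT2G21150), *TGH* (AT5G23080) and *RS40* (AT4G25500) were called in neither mutant, at 0.16, 0.10 and 0.02 on the log2 scale in *thp1-5* and at 0.10, 0.02 and 0.04 in *sac3bc*. *XCT* was called higher in *thp1-5* without Col replicate 1 (0.20, edgeR adjusted p = 0.0425) or 2 (0.20, edgeR adjusted p = 0.048). Scaled by total counts, *XCT*, *TGH* and *RS40* were called higher in both mutants, as were 56.0% of all genes in *thp1-5* and 60.8% in *sac3bc*.

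Of the genes for methylation and transport, the exportin gene *HST* (AT3G05040) alone was called. *HST* encodes the plant homolog of exportin-5, which also acts on the association of DCL1 with *MIR* genes. It had 25.6, 26.3 and 28.1 CPM in *thp1-5*, 29.5, 29.3 and 31.1 CPM in *sac3bc*, and 21.9, 23.3 and 20.8 CPM in Col. The 3 groups did not overlap, with *sac3bc* highest. It rose by 0.28 ± 0.074 in *thp1-5* (edgeR adjusted p = 0.000579) and by 0.45 ± 0.070 in *sac3bc* (edgeR adjusted p = 8.87e-09). *HEN1* (AT4G20910), the methyltransferase gene, had 15.0, 13.0 and 13.7 CPM in *thp1-5*, 13.6, 13.6 and 13.0 CPM in *sac3bc*, and 14.2, 16.3 and 14.4 CPM in Col. Its *thp1-5* libraries overlapped Col and its *sac3bc* libraries lay just below, and the 95% interval of the change ran from -0.31 to 0.07 in *thp1-5* and from -0.35 to 0.02 in *sac3bc*. The transportin gene *TRN1* (AT2G16950), whose product aids the loading of AGO1, was at -0.01 ± 0.044 in *thp1-5* and 0.03 ± 0.043 in *sac3bc* and was not called.

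The effector genes held both the largest rise and one of the larger falls. *AGO1* (AT1G48410), the main slicer of the pathway, had 175.3, 178.6 and 166.6 CPM in *thp1-5*, 155.1, 171.3 and 163.8 CPM in *sac3bc*, and 232.7, 235.4 and 240.5 CPM in Col. Every mutant library was far below every Col library. In *sac3bc* it fell by 0.53 ± 0.029 (edgeR adjusted p = 1.42e-36), against 0.44 ± 0.030 in *thp1-5*, and it was lower in both mutants also when scaled by total counts, at -0.16 in *thp1-5* and -0.20 in *sac3bc*. *HWS* (AT3G61590) encodes HAWAIIAN SKIRT, an F-box protein whose loss alters microRNA activity and organ growth. It had 23.4, 25.1 and 23.2 CPM in *thp1-5*, 23.2, 25.0 and 22.9 CPM in *sac3bc*, and 8.03, 8.32 and 9.83 CPM in Col. The mutants were nearly level with each other and far above Col, 2.73-fold in *thp1-5* (log2 1.45 ± 0.094, edgeR adjusted p = 2.12e-30) and 2.70-fold in *sac3bc* (log2 1.43 ± 0.092, edgeR adjusted p = 4.77e-31). Over the alternatives other than total counts its log2 fold change ran from 1.40 to 1.55 in *thp1-5* and from 1.38 to 1.53 in *sac3bc*. No exonic base of *HWS* is shared with another locus.

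*AGO10* (AT5G43810) encodes the close relative of AGO1 that binds miR165 and miR166 and keeps the shoot meristem. It had 71.0, 74.8 and 72.3 CPM in *thp1-5*, 56.8, 63.8 and 60.0 CPM in *sac3bc*, and 74.3, 73.3 and 71.6 CPM in Col. The *thp1-5* libraries overlapped Col, and all 3 *sac3bc* libraries lay below both. *AGO10* fell by 0.28 ± 0.045 in *sac3bc* (edgeR adjusted p = 2.13e-08), and was 0.06 and not called there when scaled by total counts. The meristem gene *STM* was -1.19 ± 0.16 in *thp1-5* and -1.32 ± 0.16 in *sac3bc*, and *CLV1* was -0.74 ± 0.043 and -0.63 ± 0.041, both called, while *CUC2* was below 1 CPM in each group. The dividing-cell genes *CYCB1;1*, *KN* and *CDKB1;1* all rose in both mutants, *CYCB1;1* by 0.95 ± 0.13 in *thp1-5* and 0.81 ± 0.13 in *sac3bc*. The part of these markers in the level of *AGO10* was not tested. *SQN* (AT2G15790), a cyclophilin gene that promotes AGO1 activity, had 10.8, 12.5 and 11.0 CPM in *thp1-5*, 13.8, 14.1 and 11.8 CPM in *sac3bc*, and 10.3, 9.27 and 10.3 CPM in Col. Both mutants lay above Col, and it rose by 0.41 ± 0.105 in *sac3bc* (edgeR adjusted p = 0.000305), with 0.21 ± 0.11 in *thp1-5*, which was not called.

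**Figure D2:**
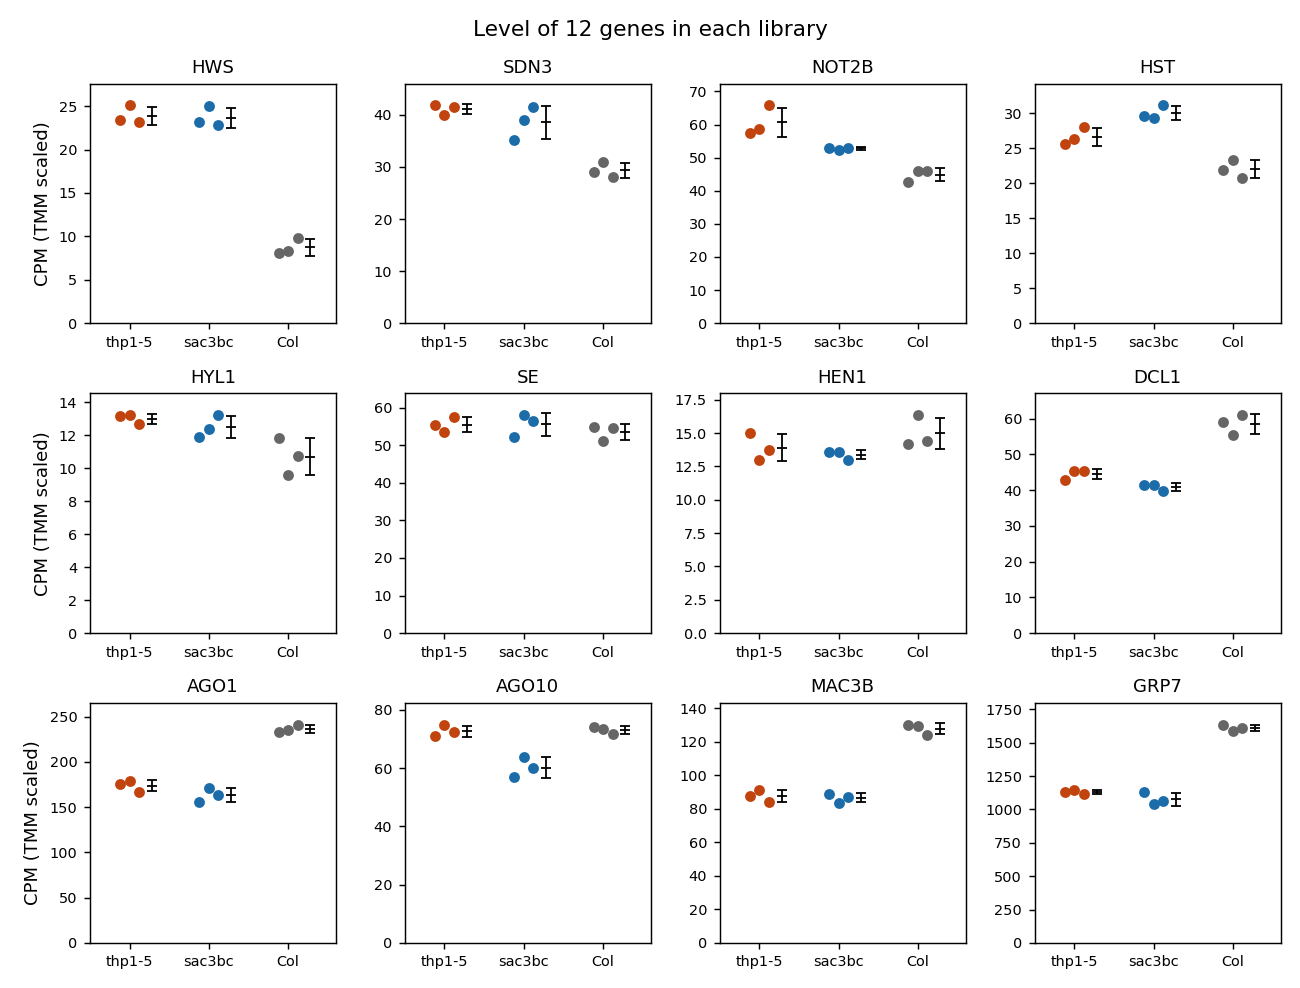
CPM of 12 of the genes in each library, with *thp1-5* (orange), *sac3bc* (blue) and Col (gray) from left to right; black bars are the mean and SD of 3 libraries and every axis starts at 0. *HWS* is near 24 CPM in both mutants against 8.72 CPM in Col, *AGO10* is low in *sac3bc* alone, and *SE* is level.

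The genes for tailing and trimming also moved in both directions. *URT1* (AT2G45620), a uridylyltransferase gene, had 59.3, 57.3 and 56.9 CPM in *thp1-5*, 55.2, 57.8 and 59.8 CPM in *sac3bc*, and 82.7, 77.8 and 77.7 CPM in Col. All mutant libraries were well below Col, and the change in *sac3bc* was -0.46 ± 0.044 (edgeR adjusted p = 3.66e-18), with -0.46 ± 0.046 in *thp1-5*. The other uridylyltransferase gene, *HESO1* (AT2G39740), was not called, at 0.01 ± 0.074 in *thp1-5* and 0.07 ± 0.071 in *sac3bc*. It shares 12.8% of its exonic bases with AT2G39750 on the other strand.

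The exonuclease genes of the SDN family, which trim mature microRNAs, split. *SDN3* (AT5G67240) had 41.8, 39.9 and 41.5 CPM in *thp1-5*, 35.1, 38.9 and 41.6 CPM in *sac3bc*, and 29.0, 30.9 and 28.1 CPM in Col. All mutant libraries were above Col, and it rose by 0.48 ± 0.063 in *thp1-5* (edgeR adjusted p = 2e-11) and by 0.40 ± 0.062 in *sac3bc* (edgeR adjusted p = 8.4e-09). *SDN3* shares 3.23% of its exonic bases with *IRX14-L* on the other strand, which rose by 0.38 ± 0.12 in *thp1-5* and 0.32 ± 0.11 in *sac3bc*. *SDN2* (AT5G05540) had 13.7, 15.5 and 13.3 CPM in *thp1-5*, 12.3, 12.8 and 13.3 CPM in *sac3bc*, and 16.4, 19.4 and 19.0 CPM in Col. All mutant libraries were below Col, and it fell by 0.36 ± 0.092 in *thp1-5* (edgeR adjusted p = 0.00028) and by 0.52 ± 0.090 in *sac3bc* (edgeR adjusted p = 1.97e-07), calls that were lost under total counts (-0.08 and -0.18). *SDN1* (AT3G50100), the least abundant of the 33 in *thp1-5* and Col by TPM, had 4.54, 6.83 and 6.33 CPM in *thp1-5*, 5.90, 5.53 and 6.89 CPM in *sac3bc*, and 5.56, 3.68 and 4.73 CPM in Col. The groups overlapped. It was called higher by 0.37 ± 0.16 in *thp1-5* (edgeR adjusted p = 0.0368) and 0.41 ± 0.16 in *sac3bc* (edgeR adjusted p = 0.0166), but in *thp1-5* it was not called without Col replicate 2 (0.22) or 3 (0.39) or without *thp1-5* replicate 2 (0.24) or 3 (0.33). In *sac3bc* the call was lost without Col replicate 2 (0.26) or *sac3bc* replicate 3 (0.31), and DESeq2 made neither call. *SDN1* shares 5.23% of its exonic bases with *PEN3*, which rose by 0.49 ± 0.11 in *thp1-5* and 0.52 ± 0.11 in *sac3bc*.

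Related genes were set against each other within each library, as ratios of counts that do not depend on the scaling between libraries. The pairs were chosen by homology with the values known. They use the same counts as the calls above, so the direction of a ratio is no separate support for those calls. *SDN1*, called higher in both mutants, was not set in a pair. *MAC3B* over *MAC3A* was 1.67 ± 0.152 in *thp1-5*, 1.57 ± 0.0552 in *sac3bc* and 2.58 ± 0.0567 in Col (SD, n = 3 each). *SDN2* over *SDN3* was 0.345 ± 0.0369 in *thp1-5*, 0.333 ± 0.0155 in *sac3bc* and 0.622 ± 0.0548 in Col. *AGO1* over *AGO10* was 2.39 ± 0.0818 in *thp1-5*, 2.72 ± 0.0255 in *sac3bc* and 3.24 ± 0.116 in Col. In these 3 pairs every mutant library was below every Col library, and for *AGO1* over *AGO10* every *thp1-5* library was also below every *sac3bc* library. *NOT2B* over *NOT2A* ran the other way, at 1.83 ± 0.102 in *thp1-5*, 1.72 ± 0.0342 in *sac3bc* and 1.57 ± 0.0342 in Col, with both mutants above Col. *RS41* over *RS40* overlapped between the groups. An exact two-sided permutation test gave p = 0.1, the smallest possible, for each mutant against Col in the 4 pairs that did not overlap, and p = 0.2 for *RS41* over *RS40*, so the design cannot bring these ratios below 0.05. A ratio shows unequal change of 2 genes and not which of them changed. Taken singly, 65.4% of all genes in *thp1-5* and 69.3% in *sac3bc* did not overlap Col. Ratios of pairs drawn from all genes were not computed, so the separation cannot be read as particular to these pairs.

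**Figure D3:**
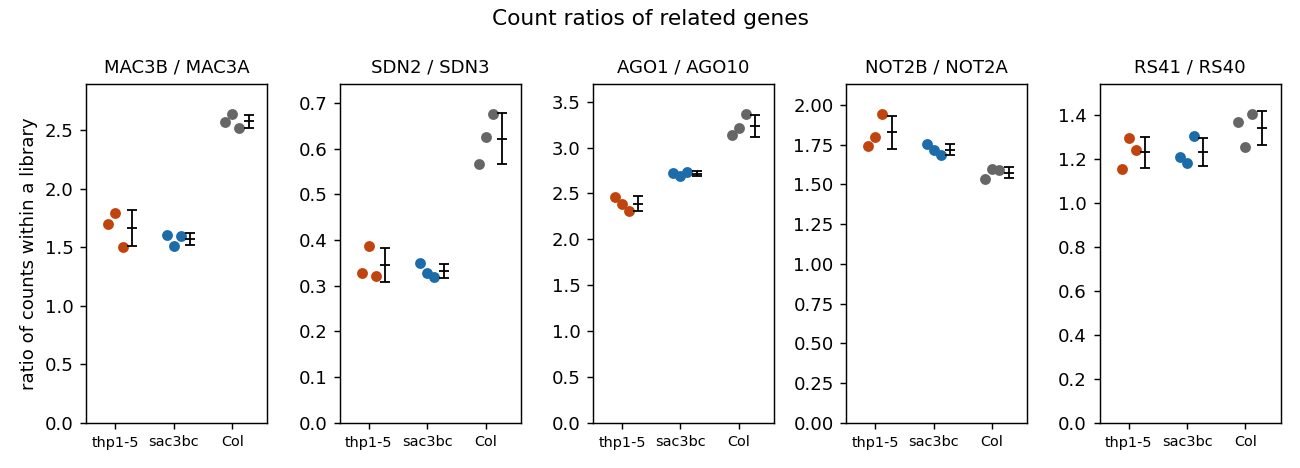
Ratio of the counts of related genes within each library of *thp1-5* (orange), *sac3bc* (blue) and Col (gray); points are libraries and black bars the mean and SD of 3. *MAC3B* over *MAC3A* is 2.58 in Col against 1.67 in *thp1-5* and 1.57 in *sac3bc*, and *RS41* over *RS40* overlaps.

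The levels of the genes were compared with each other as TPM, which divides by gene length. In Col they spanned 3.86 TPM for *SDN1* to 1709 TPM for *GRP7*, with a median of 18.3 TPM. This put them between the percentiles 24.0 and 99.7 of the genes tested, with a median of 64.3. After *GRP7* the next most abundant were *AGO1* at 80.2 ± 1.20 TPM, *MAC3B* at 70.1 ± 2.00 TPM and *CDC5* at 65.3 ± 0.652 TPM (SD, n = 3). *SE* was at 25.0 ± 0.909 TPM, above *DCL1* at 11.5 ± 0.509 TPM and *HYL1* at 7.32 ± 0.757 TPM. Neighbours in this order often did not differ beyond their spread, such as *SDN3* at 12.6 ± 0.655 TPM and *SDN2* at 12.5 ± 1.11 TPM. Of the 4 genes that stayed lower in both mutants under both scalings, *GRP7*, *AGO1* and *MAC3B* were the most abundant members, and *URT1* was at 38.8 ± 1.41 TPM. Keeping a call depends on the standard error as well as on the change. Under total counts in *sac3bc*, *SDN2* at -0.18 lost its call and *URT1* at -0.12 kept it. Their standard errors with TMM were 0.090 and 0.044, so this order by abundance is no separate result. *HWS*, at 4.03 ± 0.435 TPM in Col, was among the least abundant.

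**Figure D4:**
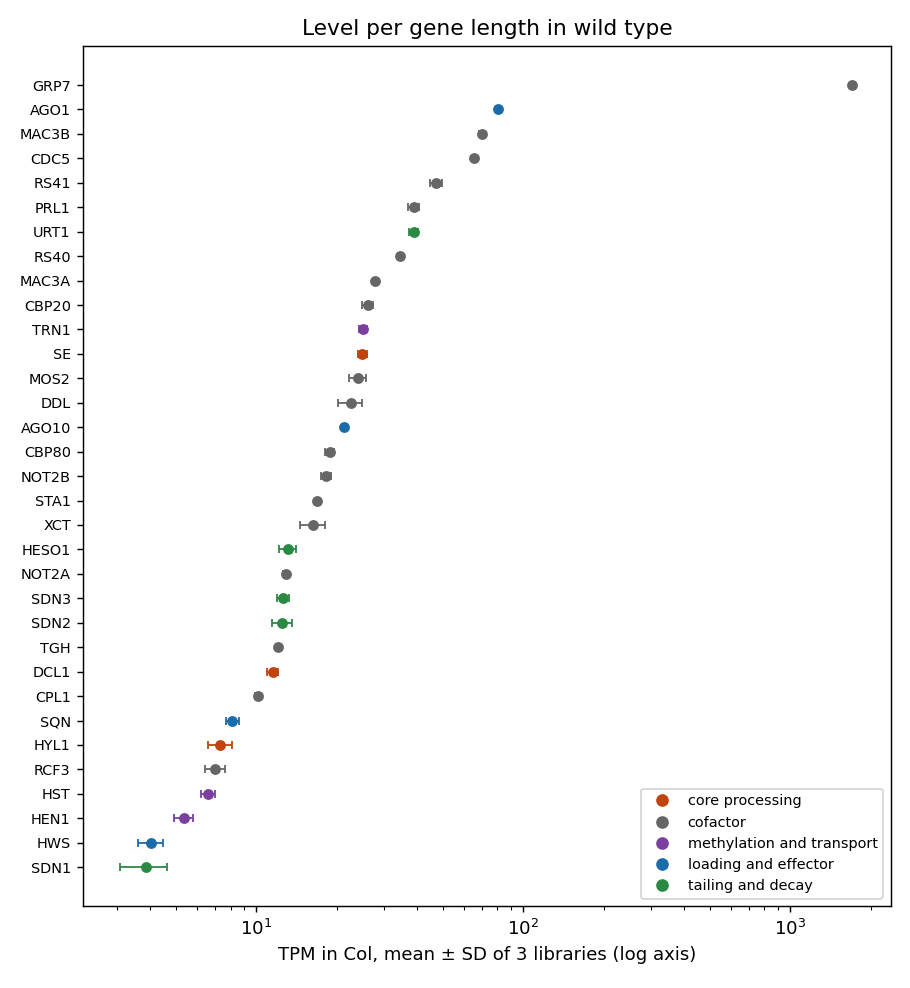
TPM of each of the 33 genes in the 3 Col libraries on a log axis, as the mean with its SD and colored by role. *GRP7*, at 1709 TPM, lies far above *AGO1* at 80.2 TPM, and *HWS* and *SDN1* are lowest.

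A second list of 23 published factors of the pathway outside the 33 was also chosen with earlier results of these data known. It had 15 genes higher and 3 lower in *thp1-5* (78.3% called against 63.8% of all genes), with a median log2 fold change of 0.23. In *sac3bc* 16 were higher and 3 lower (82.6% called against 68.0%), with a median of 0.25. Of all genes, 32.1% were higher in *thp1-5* and 35.0% in *sac3bc*. Scaled by total counts, 19 were higher in *thp1-5* and 20 in *sac3bc*, where 56.0% and 60.8% of all genes were. *AMP1* was the 1 gene lower in each (-0.25 in *thp1-5* and -0.29 in *sac3bc*), against 16.1% and 16.2% of all genes. The exportin gene *XPO1B* rose by 0.61 ± 0.088 in *thp1-5* and by 0.61 ± 0.085 in *sac3bc* (edgeR adjusted p = 7.8e-10 and 2.21e-10). *MAC5A*, a zinc finger subunit of the MOS4-associated complex, rose by 0.45 ± 0.058 in *thp1-5* and 0.44 ± 0.056 in *sac3bc*. The lariat-debranching enzyme gene *DBR1* rose by 0.44 ± 0.12 and 0.39 ± 0.11 in the same groups. The WD-repeat scaffold genes *RACK1B* and *RACK1C* rose by 0.63 ± 0.047 and 0.53 ± 0.055 in *sac3bc*. Both were also called higher in *thp1-5*, at 0.41 ± 0.050 and 0.29 ± 0.059. The falling genes were *AMP1*, needed for microRNA-guided repression of translation, at -0.54 ± 0.078 in *thp1-5* and -0.63 ± 0.076 in *sac3bc*, the kinase gene *CDKF;1* at -0.39 ± 0.069 and -0.45 ± 0.067, and the chromatin remodeler gene *BRM* at -0.24 ± 0.036 and -0.33 ± 0.036.

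The mutants were then compared directly, *thp1-5* over *sac3bc*. Of the 33 genes 4 were higher in *thp1-5*, 1 was lower and 28 were not called, which is 15.2% called against 23.0% of all genes, of which 12.1% were higher and 10.9% lower. None was past 1.5-fold, as were 3.03% of all genes, and the median size of a difference was 0.05 on the log2 scale against 0.12 for all genes. Here too the genes were not matched for level. The libraries of the mutants did not overlap in 8 genes, 7 higher and 1 lower in *thp1-5*, against 34.7% of all genes. *AGO10* was higher by 0.27 ± 0.043 (edgeR adjusted p = 1.01e-07) and *NOT2B* by 0.20 ± 0.047 (edgeR adjusted p = 0.000484), and both calls held under each alternative. *AGO1* was higher by 0.09 ± 0.030 (edgeR adjusted p = 0.0225) and *GRP7* by 0.07 ± 0.021 (edgeR adjusted p = 0.00536), with overlapping libraries. *HST* was lower, at -0.17 ± 0.065 (edgeR adjusted p = 0.045). These 3 calls were each lost without single libraries, with *AGO1* at 0.05 without *sac3bc* replicate 1, *GRP7* at 0.05 without *sac3bc* replicate 2 and *HST* at -0.14 without *sac3bc* replicate 3. For *HWS* the difference was 0.02, with a 95% interval from -0.13 to 0.16, and for *MAC3B* it was 0.02, from -0.06 to 0.09.

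**Figure D5:**
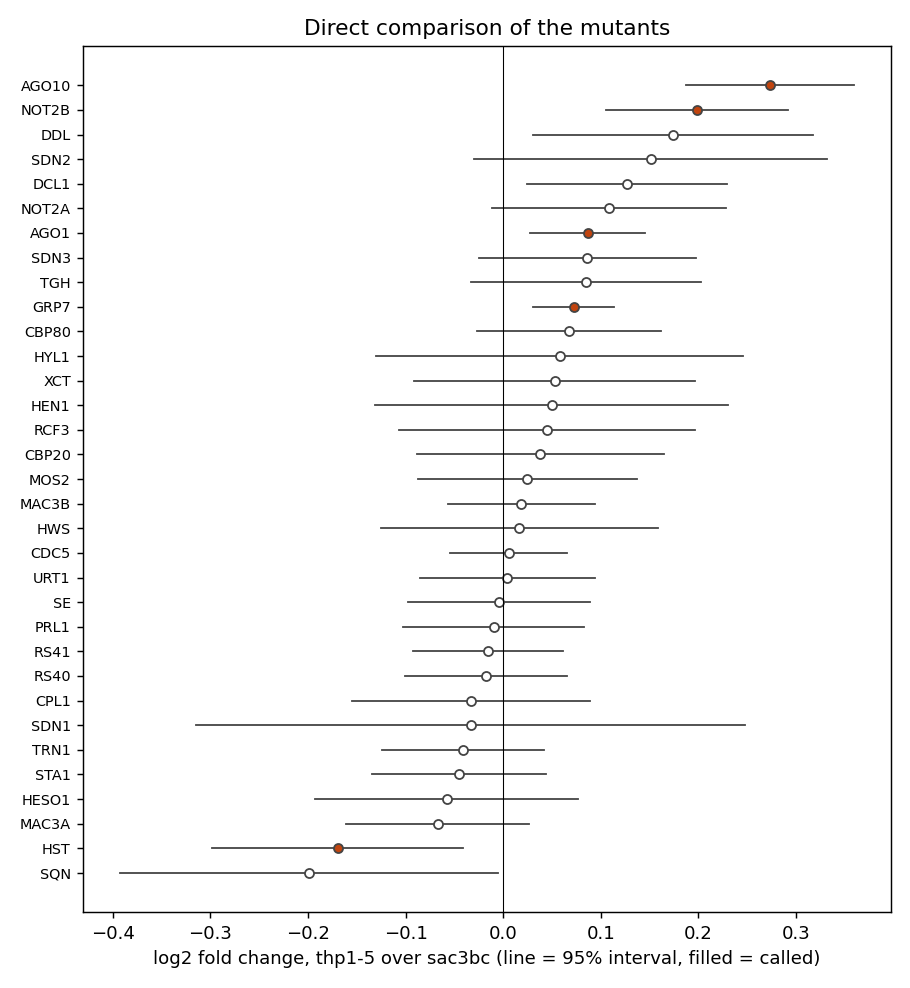
Log2 fold change of each of the 33 genes in *thp1-5* over *sac3bc*; lines are 95% intervals not adjusted for the number of genes, and filled points were called after adjustment. *AGO10* at 0.27 and *NOT2B* at 0.20 lie farthest to the right, and the unadjusted intervals of *DDL*, *DCL1* and *SQN* leave out 0 although these genes were not called.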

How the data were processed

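The authors deposited 1 table of raw read counts per gene for each of 9 mRNA libraries, with a gene length in each table. Per the labels' protocols the RNA was poly(A)-selected and read single-end. STAR and DESeq2 are listed, with no version or role, in the submitters' processing notes. No source used here gives the build, the annotation, the counter or its strand setting. The deposited length equalled the exon union in RefSeq TAIR10.1 for 99.51% of 37051 loci, and TAIR10.1 was used for symbols, shared exonic bases and sequences. The members and the lists were chosen with earlier results of these data known.

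After filterByExpr with a minimum count of 10 had kept 22400 genes, 1 model of all 9 libraries was fitted with edgeR 4.0.16 under R 4.3.3, using TMM scaling, robust dispersions and the quasi-likelihood F-test. A standard error is the size of the log2 fold change over the root of F. TPM was computed from the counts and the deposited length, without TMM, and compares genes within a group only. Total counts averaged 14.3 ± 2.09 M in *thp1-5*, 17.1 ± 0.959 M in *sac3bc* and 14.7 ± 1.37 M in Col (SD, n = 3 each), and the members had 50 to 21541 counts per library.

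Values per library are printed for *DCL1*, *HYL1*, *SE*, *HEN1*, *HST* and *AGO1*, and per mutant for at most 6 rising and 6 falling called members with the largest change. *AGO10* was added after its values were seen. Of 32 further factors, 9 whose symbol differed in the reference were dropped, and at most 3 per direction and mutant were named. Of the members, 13 share exonic bases with another locus, and 0 windows of 150 bases of a member recur in another non-overlapping locus. Alternatives were total counts and RLE in place of TMM, DESeq2 1.42.0, no filter, a filter of 1 CPM, only the 6 libraries compared, no loci with shared exonic bases, a replicate block, and each library left out. No effect shared by same-numbered libraries was seen, since the correlations of their deviations ran from -0.00928 to 0.0375. This cannot show whether the libraries were matched, which the labels do not say.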

Additional observations from a re-analysis of the deposited data

Results flagged for a closer look

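Between the mutants, 5 of the 33 genes differed by a test of *thp1-5* over *sac3bc* itself, that is, their response to 1 mutant relative to Col differed from that to the other. These log2 differences were 0.273 for *AGO10*, 0.198 for *NOT2B*, 0.0869 for *AGO1*, 0.0721 for *GRP7* and -0.17 for *HST*. For *AGO10*, the change against Col was -0.00 in *thp1-5* and -0.28 in *sac3bc*. *NOT2B* changed in both, by 0.43 in *thp1-5* and 0.23 in *sac3bc*, and *HST* by 0.28 in *thp1-5* and 0.45 in *sac3bc*. *AGO1* was -0.44 in *thp1-5* and -0.53 in *sac3bc*, and *GRP7* was -0.51 in *thp1-5* and -0.58 in *sac3bc*. Only *AGO10* and *NOT2B* were called between the mutants under every alternative tried.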

How the results depend on the processing

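Of the called members, 16 of 19 in *thp1-5* against Col, 17 of 21 in *sac3bc* against Col and 2 of 5 between the mutants kept their call in every alternative other than total counts. Scaling by total counts moved most values: in *thp1-5* 25 members were higher and 4 lower (median 0.28), of the further factors 1 was lower, and of all genes 12538 were higher and 3614 lower. In *sac3bc* the same counts were 24 and 5 (median 0.35), 1, 13625 and 3636. Between the mutants 2 members and 0 further factors were higher, with 1765 genes higher and 3703 lower. Members whose sign turned in *thp1-5* were *DDL* (0.19), *CBP20* (0.27), *CDC5* (0.065), *PRL1* (0.10), *MOS2* (0.17), *CPL1* (0.26), *STA1* (0.15), *RS41* (0.19), *TRN1* (0.28), *AGO10* (0.28) and *HEN1* (0.17), and in *sac3bc* *DDL* (0.067), *CBP20* (0.28), *CDC5* (0.11), *PRL1* (0.16), *MOS2* (0.20), *STA1* (0.25), *RS41* (0.25), *AGO10* (0.059) and *HEN1* (0.17). Without loci that share exonic bases, which leaves fewer genes, 4 members were higher in *thp1-5* and 5 in *sac3bc* (median -0.14), with 4644 and 4871 genes lower. This setting removes 13 of the 33 members, among them *HYL1*, *RCF3*, *SDN1* and *SDN3*, so these counts are not out of 33. All rising calls against Col were kept among the members left without those loci. Between the mutants 0 members were lower by RLE, by DESeq2, without the filter or without those loci. By DESeq2, without the filter or with only the 6 libraries, 1 further factor was higher, and DESeq2 called 1392 genes lower. The causes were not tested beyond these constructions.

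Leaving out 1 library, 8 to 10 members were higher and 9 to 10 lower in *thp1-5*, and 8 to 10 higher and 10 to 12 lower in *sac3bc*. Between the mutants it was 2 to 4 higher and 0 to 1 lower, and 1 to 3 further factors were higher. With the replicate number as a block, 9 members were higher and 10 lower in *thp1-5*, 10 and 11 in *sac3bc*, and 4 and 1 between the mutants, and 7147 and 7111 genes were higher and lower in *thp1-5*. None of the 9 pairs of same-numbered libraries had a correlation of deviations over 0.1. Depth limits *SDN1* most, with as few as 50 counts in a library.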
